A study of Homo sapiens with 27 samples.

Results

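The comparison described here is MMP2sh1 against control in subconfluent U2OS cells, a line of human osteosarcoma origin. It was defined by the labels alone: the 3 libraries of the line carrying the MMP2 hairpin labelled 23 (MMP2sh1) that were collected while proliferating, and the 3 proliferating libraries of the line carrying the blank pLKO.1 vector (control). These are 6 of the 27 libraries of the study, which also followed both lines and a line with another MMP2 hairpin, labelled 26 (MMP2sh2), to confluence (day 0) and over-confluence (day +2). All lines were stable lentiviral lines selected with puromycin and kept in DMEM with fetal bovine serum, so control and MMP2sh1 shared the vector backbone, the selection and the medium. The cells were plated sparsely and harvested at this stage, day -2, and poly(A) RNA was sequenced. Each hairpin is represented by 1 stable line, and the study describes its 3 replicates per group as independent. Of the 55882 gene symbols in the count tables, 18878 passed the filter on low counts and were tested.

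Matrix metalloproteinase 2 (MMP-2, gene MMP2) is a secreted zinc protease, a gelatinase that cleaves denatured collagen and basement membrane components. It is made as an inactive proenzyme that membrane-type matrix metalloproteinases activate at the cell surface, and tissue inhibitors of metalloproteinases (TIMPs) restrain it. The study also treats MMP-2 as a nuclear protease that clips the N-terminal tail of histone H3, with the lysosomal protease cathepsin B (gene CTSB) as another, and asks which genes depend on it.

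The 6 libraries held 35135375 to 59374327 counted read pairs. Control and MMP2sh1 libraries separated on the first principal component, which carried 54.92% of the variance of 10476 genes, and MMP2sh1 replicates 1 and 3 lay at opposite ends of the second (18.32%). Markers of the osteoblast lineage were mixed, with COL1A1 at 989 to 1281 CPM (counts scaled to library sizes adjusted by TMM, a normalisation for composition), SPARC at 1180 to 1413 CPM and RUNX2 at 28.9 to 35.6 CPM, whereas SP7, BGLAP and COL1A2 were below 1 CPM and IBSP was at 0 in all 6 libraries. SPARC was at 1180, 1204 and 1222 CPM in control and 1288, 1371 and 1413 CPM in MMP2sh1 and was called higher. This call was lost without control replicate 1 or 2 or MMP2sh1 replicate 2 or 3 (adjusted p 0.0671 to 0.154 in edgeR). Summed markers of blood cells stayed at 0.384 to 0.937 CPM in control and 0.678 to 1.21 CPM in MMP2sh1. Because the RNA came from whole cultures, a change in how many cells express a gene and a change per cell cannot be told apart.

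The targeted gene was reduced to 17.3% of its control level. MMP2 (GRCh37, chromosome 16, 55423612 to 55540603) was at 214, 218 and 239 CPM in the control libraries and at 32.8, 38.2 and 45.1 CPM in the MMP2sh1 libraries. Every MMP2sh1 library therefore lay far below every control library, as their labels require. The log2 fold change was -2.53 ± 0.08 (SE) with an adjusted p of 1.06e-17 (from the quasi-likelihood test of edgeR, adjusted by Benjamini-Hochberg over all tested genes, as for every adjusted p given here). This was the smallest p of all tested genes.

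LPCAT2, which encodes a lysophosphatidylcholine acyltransferase and starts just beyond the end of MMP2 (chromosome 16, 55542984 to 55620578), fell with it. Its level was low, at 1.42, 1.42 and 1.29 CPM in control and 0.104, 0.271 and 0.235 CPM in MMP2sh1, with a log2 fold change of -2.72 ± 0.48. It was the 1 called by edgeR among 10 tested genes around MMP2. DESeq2 gave it no adjusted p (-2.74, unadjusted p = 1.46e-08), and it did not reach 10 counts in every library. The 10 genes held 2 calls with the replicate block, without MMP2sh1 replicate 1 or with an offset for GC content. Whether its counts include reads from MMP2 transcripts was not tested.

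CTSB did not pass the test at this stage. The control libraries were at 828, 850 and 846 CPM and the MMP2sh1 libraries at 691, 798 and 840 CPM, so that the groups overlapped only between the highest MMP2sh1 library and the lowest control library. The log2 fold change was -0.12 ± 0.06 with an adjusted p of 0.23. None of the 13 tested cathepsins was called by edgeR, none had an unadjusted p under 0.05, and DESeq2 called none of them either. With an offset for GC content in each library, chosen after seeing the data, 1 cathepsin was called, CTSD (-0.19, adjusted p = 0.0241 in edgeR). CTSL, which is known to clip histone H3 in other cells, was at 133 CPM in both groups.

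Across all tested genes, 2184 (11.6%) were called at an adjusted p under 0.05, of which 1160 (6.14%) were lower and 1024 (5.42%) were higher in MMP2sh1. Changes of the called genes were mostly small, with a median size of 0.32 on the log2 scale. A change of more than 1.5-fold was reached by 371 genes and one of more than 2-fold by 143, of which 56 were lower and 87 higher. The values of the 2 groups did not overlap for 2133 of the 2184 called genes and for 5377 (28.5%) of all tested genes. Calls and lack of overlap come from the same 6 libraries, so the one is no separate support for the other. Called genes were mostly well expressed, with 24.2% called among genes of at least 100 CPM and 0.512% among genes under 1 CPM in the higher of the 2 groups. The share was 11.5% at 5 to 20 CPM and 17.9% at 20 to 100 CPM. Shares of calls given for lists below were not matched for level. Leaving out control replicate 1, the deepest library, reduced the calls to 1321. Leaving out MMP2sh1 replicate 1 gave 2274 calls, and any 1 of the remaining libraries 1473 to 1712.

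**Figure D1:**
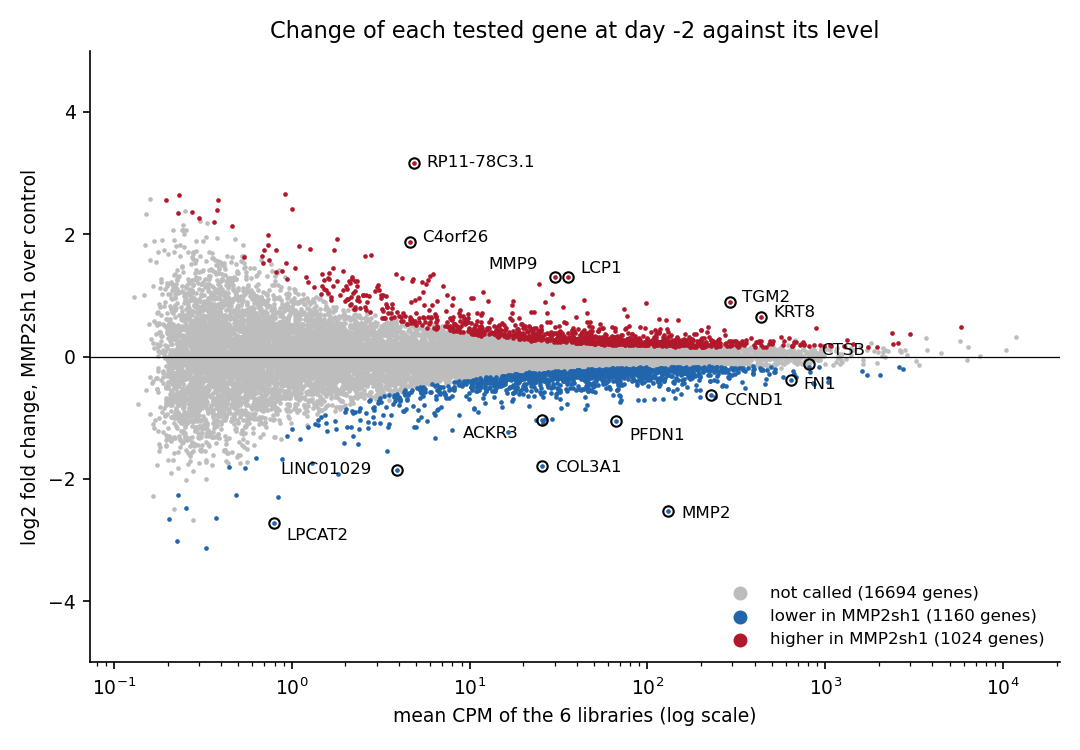
Each point is 1 of the 18878 tested genes, with the mean CPM of the 6 libraries on the horizontal axis (log scale) and the log2 fold change of MMP2sh1 over control at day -2 on the vertical axis; blue points were called lower, red points higher and grey points were not called. MMP2 at -2.53 lies below all other genes of a similar level, and most called genes above 100 CPM lie close to 0.

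After MMP2, the smallest p-values among the falls belonged to a collagen chain and a chaperone subunit. COL3A1, the chain of type III collagen, was at 39.9, 38.8 and 40.8 CPM in control and at 9.23, 11.6 and 13.6 CPM in MMP2sh1, a fall of 1.79 ± 0.10 on the log2 scale. PFDN1, a subunit of the prefoldin chaperone that hands actin and tubulin to the chaperonin, was at 90.2, 91.1 and 89.5 CPM in control and 47.1, 42.0 and 41.2 CPM in MMP2sh1. The MMP2sh1 mean was 48.2% of the control mean (log2 fold change -1.06 ± 0.06). Of the 6 prefoldin subunits, PFDN1 was the 1 called by edgeR with all 6 libraries (VBP1, at -0.20, was also called without MMP2sh1 replicate 1), and the others had log2 fold changes between -0.12 and 0.12. PFDN1 overlaps CYSTM1 on the other strand, and CYSTM1 itself was higher (0.41 ± 0.11), a call lost without control replicate 3 (adjusted p = 0.0836 in edgeR) or MMP2sh1 replicate 3 (0.0969).

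Among the falls with the smallest p were also F2RL2, a protease-activated receptor (-1.03 ± 0.08), H6PD, the hexose-6-phosphate dehydrogenase of the endoplasmic reticulum (-1.08 ± 0.09), and CCND1, cyclin D1 (-0.63 ± 0.05). WSB2 and RFC5, whose annotated spans overlap on opposite strands of chromosome 12, fell by 0.71 and 0.80 on the log2 scale. Counting did not use strand, so reads from their shared stretch cannot be assigned to one of them. F2RL2 lies inside the span of IQGAP2, which was at 1.22 CPM in control and was not called.

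On the other side, LCP1, the actin-bundling protein plastin 2 that is typical of leukocytes, rose from 20.9, 20.1 and 21.0 CPM to 52.8, 49.7 and 50.9 CPM (log2 fold change 1.30 ± 0.07, adjusted p = 5.65e-12 in edgeR). TGM2, the transglutaminase that crosslinks matrix proteins, rose from 205, 206 and 200 CPM to 364, 375 and 391 CPM (0.89 ± 0.05). The replicates of each gene differed far less than the groups. PSG4, a pregnancy-specific glycoprotein (1.18), ZNF114, a zinc finger gene (0.93), BEX1 (0.87), ANO2, a calcium-activated chloride channel (0.78), and KRT8, keratin 8 (0.64), completed the rises with the smallest p. Of the leukocyte markers, PTPRC was at 0.130 to 0.610 CPM in the 6 libraries and was not called. CD3E was at 0 in each of them and was not tested.

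**Figure D2:**
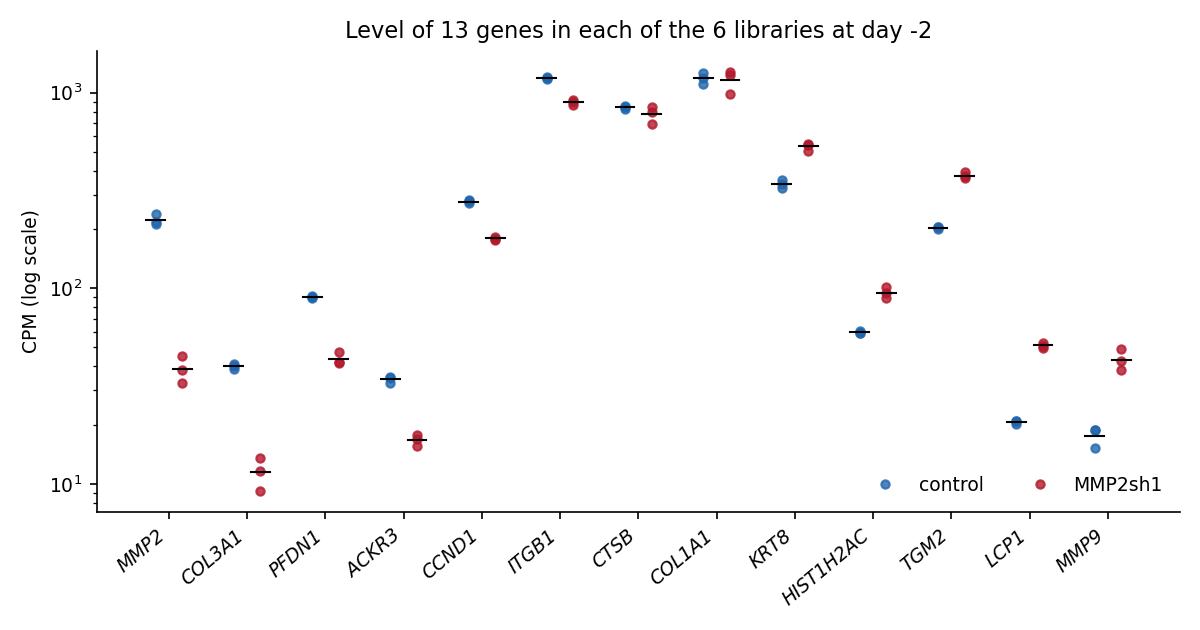
Level of 13 genes in each of the 6 libraries at day -2 in CPM (log scale); blue points are the 3 control libraries, red points the 3 MMP2sh1 libraries and black bars the group means. MMP2, COL3A1, PFDN1, ACKR3, CCND1 and ITGB1 are lower and KRT8, HIST1H2AC, TGM2, LCP1 and MMP9 higher in all 3 MMP2sh1 libraries, and the groups overlap for CTSB and COL1A1.

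The largest changes were found among genes of low level. RP11-78C3.1, a transcript named only by its clone, rose from 0.918, 1.05 and 0.929 CPM to 8.74, 8.67 and 8.73 CPM (log2 fold change 3.17 ± 0.18), the largest rise among genes of at least 1 CPM. Other large rises were those of LIPH, a phospholipase (2.66), TIE1, a receptor tyrosine kinase of endothelium (2.41), and C1orf116 (1.93). C4orf26 (1.88), GDAP1L1 (1.83), GPA33 (1.80), SKAP1 (1.75), MILR1 (1.75) and IVL, the cornified envelope protein involucrin (1.74), rose as well. Of these 10 genes, only C4orf26 and RP11-78C3.1 exceeded 5 CPM in MMP2sh1.

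The largest falls after LPCAT2 and MMP2 were those of RP11-671C19.2 (-2.29), the zinc finger gene ZNF718 (-1.92), LINC01029 (-1.86), COL3A1, TNIP3 (-1.74), ABCB10P1 (-1.67), ADAMTS8 (-1.54), ADAMTS5 (-1.44), C10orf11 (-1.41) and TLE6 (-1.35). LINC01029 was at 7.36, 5.64 and 5.23 CPM in control and 1.41, 1.75 and 1.88 CPM in MMP2sh1. Several of these low-level calls were lost when 1 of several libraries was left out. TLE6, MILR1 and ABCB10P1 were each not called without any 1 of 4 libraries and GDAP1L1 and IVL without any 1 of 3, with adjusted p-values of 0.0527 to 0.15 in edgeR. For TLE6 and MILR1 these were control replicates 2 and 3 and MMP2sh1 replicates 2 and 3, for ABCB10P1 control replicates 2 and 3 and MMP2sh1 replicates 1 and 2, for GDAP1L1 control replicate 2 and MMP2sh1 replicates 1 and 3, and for IVL control replicates 1 and 3 and MMP2sh1 replicate 2.

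Proteases other than MMP2 moved in both directions. MMP9, the other gelatinase, rose from 15.2, 18.8 and 18.7 CPM to 38.3, 42.4 and 48.7 CPM (log2 fold change 1.30 ± 0.10), and MMP3, stromelysin 1, rose from 28.5, 30.0 and 23.2 CPM to 39.3, 41.6 and 40.5 CPM (0.57 ± 0.08). In both genes the lowest MMP2sh1 library exceeded the highest control library. MMP14, the main membrane-type activator of the MMP-2 proenzyme, fell from 136, 145 and 143 CPM to 90.4, 113 and 119 CPM (-0.40 ± 0.07). Of the other membrane-type enzymes, MMP16 also fell (-0.26) and MMP24 rose (0.44). MMP15 rose by 0.38, a call that was lost without control replicate 1 (0.30, adjusted p = 0.058 in edgeR). The inhibitor TIMP2 was at 323 ± 17.3 CPM (SD, n = 3) in control and 297 ± 30.4 CPM in MMP2sh1 and was not called, nor was TIMP3 (0.16 ± 0.06).

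The ADAM and ADAMTS proteases shed membrane proteins and cleave matrix proteoglycans. In this family 8 of 25 tested genes were lower and 1 was higher, 36% against 11.6% of all tested genes. ADAMTS12 fell from 161 to 122 CPM (-0.40 ± 0.05), ADAMTS15 from 15.2 to 9.05 CPM (-0.75 ± 0.12), ADAMTS5 from 3.45 to 1.27 CPM (-1.44 ± 0.26) and ADAM9 from 273 to 218 CPM (-0.32 ± 0.05). None of these groups overlapped. ADAM15 was the higher one (0.26) and was not called without control replicate 2 (adjusted p = 0.0847 in edgeR) or MMP2sh1 replicate 3 (0.0963). A2M, the broad plasma protease inhibitor alpha-2-macroglobulin, fell to 39.5% of control (8.35, 10.0 and 9.20 CPM against 2.74, 3.96 and 4.18 CPM, -1.33 ± 0.16), while SERPINA1, the elastase inhibitor alpha-1-antitrypsin, rose by 0.47 ± 0.07.

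Of the 9 tested fibrillar collagens, COL3A1 and COL5A2 were called (22.2%, against 11.6% of all tested genes) and both fell. COL5A2 was at 106, 112 and 112 CPM in control and 54.7, 73.2 and 74.0 CPM in MMP2sh1 (-0.71 ± 0.08). COL1A1, the chain of type I collagen, was at 1187 ± 82.7 and 1165 ± 155 CPM (SD, n = 3 each) and was not called. The other 7 fibrillar collagens, COL1A1 among them, thus did not pass the test, although 8 of the 9 were below 0. COL16A1 fell by 0.66 ± 0.11, and PLOD2, the lysyl hydroxylase that prepares collagen crosslinks, fell by 0.41 ± 0.06. COL8A1, a short-chain collagen, rose by 0.31 ± 0.06.

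Of 43 tested matrix glycoproteins and proteoglycans, 8 were lower and 6 higher, 32.6% against 11.6% of all tested genes. Without MMP2sh1 replicate 2, 9 in all were called. The microfibril proteins FBN2 (172, 181 and 175 CPM against 95.6, 118 and 116 CPM, -0.68 ± 0.07) and FBN1 (-0.44 ± 0.09), the basement membrane linker NID1 (-0.38 ± 0.07) and the cell-surface proteoglycans GPC1 (-0.34 ± 0.05) and SDC3 (-0.38 ± 0.06) fell. TGFBI, a matrix protein induced by TGF-beta, and the laminin chain LAMA1 rose by 0.43 ± 0.05 and 0.36 ± 0.06. FN1, fibronectin, was at 634, 779 and 776 CPM in control and 380, 613 and 682 CPM in MMP2sh1. Its groups overlapped, MMP2sh1 replicate 1 was by far the lowest, and the call (-0.39 ± 0.12, adjusted p = 0.031 in edgeR) was lost without that library (-0.18, adjusted p = 0.084) and without control replicate 2, control replicate 3 or MMP2sh1 replicate 2 (0.065 to 0.146).

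Integrins are the receptors that tie cells to this matrix. ITGB1, the beta chain shared by most of them, fell from 1202, 1176 and 1189 CPM to 863, 913 and 901 CPM (-0.41 ± 0.05), and ITGA6, a laminin-binding alpha chain, fell from 79.4, 78.4 and 83.4 CPM to 54.8, 56.8 and 55.1 CPM (-0.53 ± 0.06). Both changes were far larger than the spread within either group. In all, 4 of 19 tested integrins were lower and 2 higher, 31.6% against 11.6% of all tested genes. These counts fell to 3 calls in total without control replicate 1 or control replicate 2 and to 2 without MMP2sh1 replicate 2.

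The clustered protocadherin beta genes lie side by side on chromosome 5 and encode adhesion molecules used mainly by neurons. Among lists with at least 10 tested genes they had the highest share of calls, 60% against 11.6% of all tested genes. Of 15 tested genes 9 were lower and 14 had a log2 fold change below 0, with a median of -0.98. PCDHB16 fell from 6.44, 7.79 and 6.95 CPM to 3.05, 4.31 and 3.31 CPM, PCDHB11 from 8.43 to 4.32 CPM and PCDHB12 from 8.51 to 4.60 CPM. These genes are similar in sequence and of low level, and reads that could belong to several of them were not counted. PCDHB5, the one with most reads, was at 53.4 ± 5.67 and 47.9 ± 9.13 CPM (SD, n = 3 each) and was not called. Under the alternative settings the list's median stayed between -1.12 and -0.88. Of 33 tested clustered protocadherin alpha and gamma genes, 2 were called, both lower (6.06%), and the median was -0.35.

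Of 19 tested classical cadherins and catenins, 4 were lower and 3 higher, 36.8% against 11.6% of all tested genes. The list held 4 calls in all without any 1 of the control libraries or MMP2sh1 replicate 2. CDH11, osteoblast cadherin, fell from 23.7, 27.3 and 28.4 CPM to between 17.3 and 18.5 CPM (-0.56 ± 0.09), and CDH13 fell by 0.47 ± 0.07. CDH4 (0.50 ± 0.06) and the junctional protein plakoglobin, JUP (0.46 ± 0.09), rose. Among ephrins, semaphorins, slits and their receptors, which steer axons and migrating cells, 8 of 50 were lower and 1 was higher. The share called was 18%, against 11.6% of all tested genes and 17.9% of those at 20 to 100 CPM. SEMA3E fell from 39.9, 37.9 and 38.7 CPM to 15.8, 21.2 and 20.4 CPM (-1.02 ± 0.09), EFNA2 by 1.20 ± 0.15, NTN4 by 0.64 ± 0.10, NRP1, a semaphorin and VEGF co-receptor, by 0.45 ± 0.07 and ROBO1 by 0.43 ± 0.06. SEMA7A, a membrane-anchored semaphorin, rose by 0.31 ± 0.06. ACKR3, the scavenger receptor for the chemokine CXCL12, was at 35.2, 34.7 and 32.7 CPM in control and 15.6, 17.7 and 16.9 CPM in MMP2sh1 (-1.03 ± 0.08), the smallest p of 29 tested chemokine, interleukin and receptor genes.

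Genes of growth control followed. Of 23 genes for G1 cyclins, their kinases and pocket proteins, 5 were lower and 1 was higher (26.1%, against 11.6% of all tested genes). CCND1 was at 282, 273 and 279 CPM in control and 183, 179 and 177 CPM in MMP2sh1 (64.7% of control), its partner kinase CDK6 fell from 184 to 136 CPM (-0.44 ± 0.05) and the repressor E2F7 fell by 0.32 ± 0.06. CCND2, the related cyclin D2, was the gene that rose (0.24 ± 0.05). MYC, which drives growth genes, rose by 0.31 ± 0.05. Of 6 tested inhibitors of cyclin-dependent kinases, 2 were called, both lower (33.3%, against 11.6% of all tested genes). Among the 6, 3 were above 0, and the median was -0.035. CDKN1A (p21) was at 187, 188 and 171 CPM in control and 141, 133 and 148 CPM in MMP2sh1 (-0.37 ± 0.06). CDKN1B (p27) fell by 0.31 ± 0.06.

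CDKN1A is a classical target of the p53 transcription factor. Of 28 tested p53 targets 8 were lower and 1 was higher (32.1%, against 11.6% of all tested genes), with a median of -0.15. TP53INP1, a stress-induced regulator of p53 (18.6, 19.7 and 18.1 CPM against 11.7, 10.3 and 11.8 CPM, -0.74 ± 0.10), and the damage sensor XPC (-0.34 ± 0.07) were the other falls with the smallest p. Of 48 DNA replication genes, 5 were lower and 2 higher, 14.6% against 11.6% of all tested genes. Among them were RRM2, the small subunit of ribonucleotide reductase (392 to 293 CPM, -0.42 ± 0.05), and MCM3 of the replicative helicase (-0.29 ± 0.05). Of 44 mitosis genes 7 were lower and 2 higher (20.5%), led by MYBL2, a transcription factor of late cell-cycle genes (542, 523 and 521 CPM against 394, 363 and 400 CPM, -0.46 ± 0.05). The proliferation marker MKI67 fell by 0.24 ± 0.05. The calls numbered 4 among replication genes without control replicate 1 or MMP2sh1 replicate 2, and 2 to 5 among mitosis genes without control replicate 1, control replicate 3 or MMP2sh1 replicate 2, and the median log2 fold change was 0.010 for the former list and -0.013 for the latter.

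Replication-dependent histone genes, whose main messages lack a poly(A) tail, gave 7 higher genes of 38 tested, 18.4% against 11.6% of all tested genes. HIST1H2AC rose from 59.3, 60.1 and 59.0 CPM to 101, 89.0 and 94.1 CPM (0.67 ± 0.06), HIST1H2BK from 188, 178 and 183 CPM to 267, 246 and 256 CPM (0.49 ± 0.05) and HIST1H2BJ from 21.8 to 32.5 CPM (0.57 ± 0.09). The linker histone HIST1H1C rose by 0.29 ± 0.07 and was not called without control replicate 3 (0.20, adjusted p = 0.0524 in edgeR). The RNA was selected for poly(A) tails, so forms without a tail were not captured by design.

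Of 64 genes for enzymes that modify histones or DNA, 12 were lower and 2 higher, 21.9% against 11.6% of all tested genes. A log2 fold change below 0 was found for 53 of them. TET2, which oxidises 5-methylcytosine, fell from 36.0, 34.6 and 42.2 CPM to 23.0, 24.5 and 23.3 CPM (-0.67 ± 0.08). KDM5B, a demethylase of histone H3 lysine 4, fell from 50.5 to 34.6 CPM (-0.54 ± 0.07), and HDAC8 (-0.53 ± 0.10), HDAC9 (-0.38 ± 0.07) and the H3 lysine 27 demethylase KDM6A (-0.50 ± 0.10) fell as well. KAT2A, the acetyltransferase GCN5, rose by 0.29 ± 0.06. Zinc finger genes named ZNF, many of them DNA-binding repressors, were lower in 49 of 465 cases and higher in 7 (12% called in all, against 11.6% of all tested genes), with a median of -0.14. ZNF148 (60.1, 59.7 and 61.3 CPM against 40.4, 40.4 and 41.0 CPM) and ZNF503 (-0.65 ± 0.10) were examples, and ZNF114, named above, and ZNF165 (1.16 ± 0.22) went the other way.

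Targets of NRF2, the regulator of the antioxidant response, were lower in 9 of 26 cases and higher in 1, with a median of -0.19. The share called was 38.5%, against 11.6% of all tested genes. SLC7A11, the cystine importer that feeds glutathione synthesis, fell from 53.3, 51.4 and 50.3 CPM to 33.5, 37.2 and 37.0 CPM (-0.52 ± 0.07), the pentose phosphate enzyme TALDO1 fell from 108 to 87.5 CPM (-0.31 ± 0.06) and the thioredoxin reductase TXNRD1 from 287 to 241 CPM (-0.25 ± 0.05). PGD, another pentose phosphate enzyme, rose from 212 to 248 CPM. The list held 6 calls without control replicate 1 and 5 without MMP2sh1 replicate 2.

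Of 38 glycolysis and hypoxia genes 4 were higher and 1 was lower, 13.2% against 11.6% of all tested genes, with ALDOC, an aldolase, going from 8.08, 6.76 and 5.66 CPM to 12.9, 12.8 and 14.7 CPM (0.97 ± 0.13) and PGAM1 (0.32 ± 0.05) and ALDOA (0.27 ± 0.05) following, and the list held 3 calls without MMP2sh1 replicate 2 and 10 with the GC offset. Of 23 genes of fatty acid synthesis and desaturation 6 were higher, 26.1% against 11.6% of all tested genes. Examples were AGPAT2 (61.8 to 77.4 CPM, 0.32 ± 0.06) and ELOVL1 (0.27 ± 0.06). The list held 3 calls without control replicate 2 or MMP2sh1 replicate 3. ABCG1, a cholesterol exporter, fell from 8.90, 8.64 and 8.08 CPM to 3.91, 4.90 and 5.33 CPM (-0.86 ± 0.15), the 1 of 31 sterol genes that was called lower. Another 5 sterol genes were called higher, with 19.4% of the list called in all. The list held 2 calls without control replicate 1 and 1 without control replicate 2.

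The called shares of respiratory chain and ribosomal genes were near the 11.6% of all tested genes. Among all genes at 20 to 100 CPM 17.9% were called, and among those of at least 100 CPM 24.2%. The lists were not matched for level. Of 75 nuclear respiratory chain genes 9 were higher and 1 was lower, 13.3% against 11.6% of all tested genes (4 to 6 calls in all without any 1 of the control libraries), with ATP5G3 at 163 and 197 CPM (0.28 ± 0.05). The lower one, NDUFA4, lies on the short arm of chromosome 7, described below. Of 84 cytosolic ribosomal protein genes 7 were higher and 1 was lower, which is 9.52% (3 calls without control replicate 1, 5 without MMP2sh1 replicate 3 and 15 by DESeq2), such as RPL22L1 (0.37 ± 0.07) and RPL27 (0.23 ± 0.05). Of the 13 protein genes of the mitochondrial genome, 3 were called higher, all with overlapping groups. This count ranged from none by DESeq2 or without MMP2sh1 replicate 2 or 3 to 12 without MMP2sh1 replicate 1. Mitochondrial genes held 4.16 to 5.30% of the counts in control libraries and 4.24, 6.11 and 6.55% in the MMP2sh1 libraries.

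Among 30 ligands and receptors of the EGF, FGF, PDGF and VEGF families, 4 were higher and 2 lower. The share called was 20%, against 11.6% of all tested genes and 17.9% of those at 20 to 100 CPM. NRG1, a ligand of the ERBB receptors, rose from 18.5 ± 0.971 to 34.5 ± 2.82 CPM (SD, n = 3 each, log2 fold change 0.90 ± 0.09), and VEGFC, the growth factor of lymphatic vessels, fell from 13.6 ± 1.77 to 7.63 ± 1.05 CPM (-0.84 ± 0.13). PDGFA fell by 0.45 ± 0.07. ENG, the TGF-beta co-receptor endoglin, rose from 16.7 ± 1.06 to 27.6 ± 2.44 CPM (0.73 ± 0.09). INHBA, the activin subunit, rose by 0.49 ± 0.06 and CTGF, a matricellular protein, by 0.36 ± 0.06. In each of these genes the groups were apart.

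Of 41 interferon-stimulated genes 1 was lower and 1 higher, and with 4.88% called the list stood below the 11.6% of all tested genes. The list held 1 call without any 1 of the control libraries, 4 by DESeq2 and 6 in a fit over all 27 libraries. Among 15 tested pregnancy-specific glycoprotein, cancer-testis and placental genes 5 were higher and 1 was lower, 40% in all. PSG4 was at 16.3, 14.6 and 14.2 CPM in control and 33.5, 32.6 and 36.6 CPM in MMP2sh1, and its neighbours PSG5 (0.84 ± 0.15) and PSG3 (1.20 ± 0.27) rose as well. PSG genes are near-identical copies of each other, so the assignment of reads among them is uncertain. Among 23 small RNA host genes and abundant long noncoding RNAs 6 were higher and 3 lower, 39.1% in all. MIAT fell from 22.6, 22.3 and 24.5 CPM to 8.06, 10.4 and 11.1 CPM (-1.23 ± 0.11), while DANCR (169 to 228 CPM, 0.43 ± 0.06) and SNHG3 (99.5 to 136 CPM, 0.45 ± 0.06) rose.

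**Figure D3:**
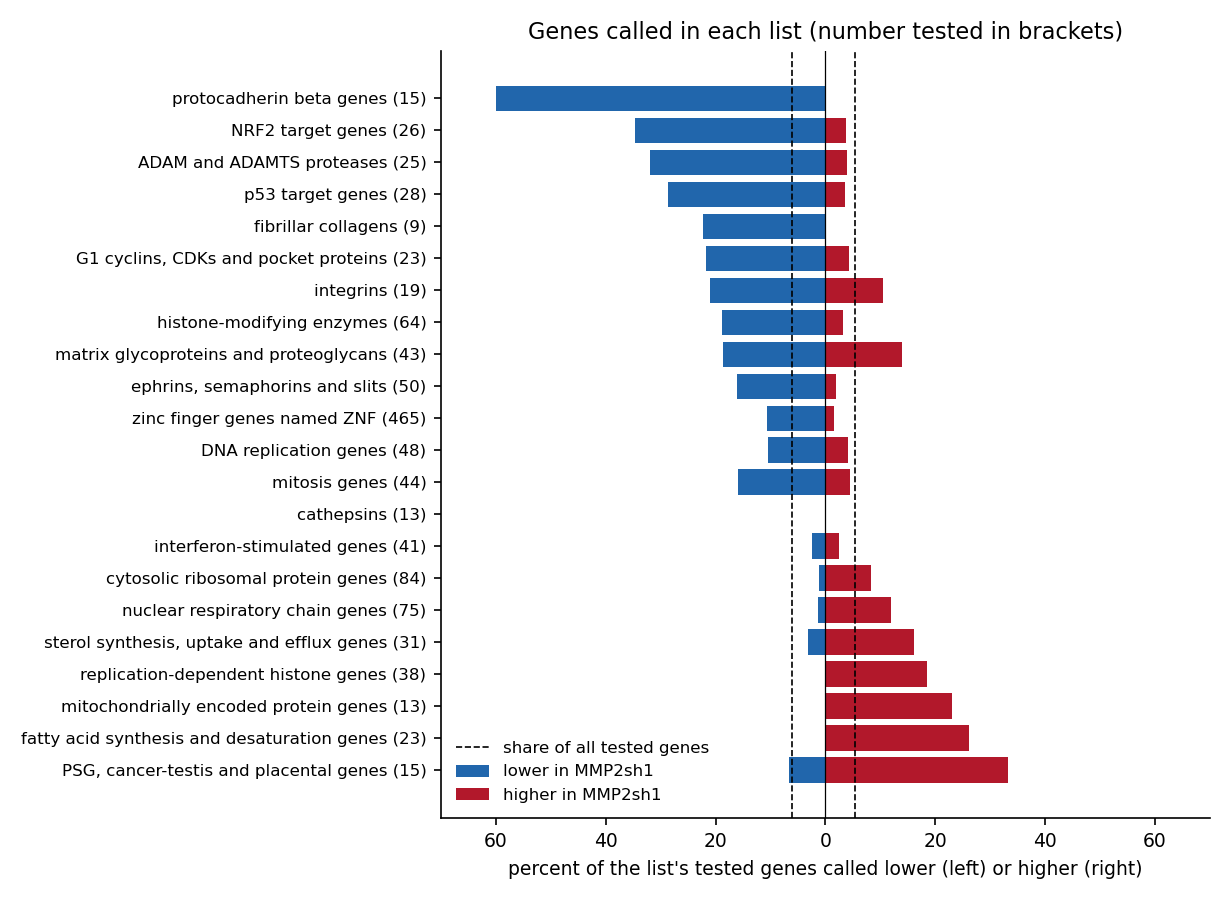
Percentage of the tested genes of 22 lists that were called lower (blue, to the left) or higher (red, to the right) in MMP2sh1 at day -2; the number tested is in brackets and the dashed lines mark the share of all tested genes, 6.14% lower and 5.42% higher. The protocadherin beta genes reach furthest to the left with 9 of 15, and the pregnancy-specific glycoprotein and placental genes furthest to the right with 5 of 15.

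The called genes differed in base composition and length. Genes called lower had a median exonic GC content of 45.28% and a median exonic length of 6910 bases, and genes called higher 53.55% and 4623 bases, against 48.27% and 5057 bases over the 15784 tested genes with an annotation. Among the 3950 genes with the lowest GC content 384 were lower and 99 higher, and among the 3940 with the highest 199 were lower and 376 higher. The libraries themselves varied along GC content: the correlation across genes between a library's deviation from its group mean and GC content was -0.426 for MMP2sh1 replicate 1 and 0.484 for MMP2sh1 replicate 3, and -0.233 to 0.164 for the control libraries. Its part in the split of the calls was not tested beyond the offset that follows. With an offset for GC content in each library, chosen after seeing the data, 2619 genes were called and 1998 of them were among the 2184.

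Called genes were also unevenly spread over the chromosomes. Among the 12485 genes placed on a chromosome with at least 2 CPM, 16.4% were called, and chromosome 7 held 106 lower and 36 higher genes of 591 while chromosome 17 held 32 lower and 130 higher genes of 738. On chromosome 7 the lower genes gathered in the distal short arm, from 0 to 28 Mb, a stretch delimited after the values had been seen. Of its 116 genes 53 were lower and 1 was higher, 109 had a log2 fold change below 0 and the median was -0.21. SUN1, a nuclear envelope protein that links the nucleus to the cytoskeleton (216, 217 and 216 CPM against 148, 164 and 161 CPM), SNX8, a sorting nexin (-0.48), TTYH3 (-0.43), PDGFA, HDAC9 and NDUFA4 are in this stretch. On the long arm of chromosome 17, from 25 to 82 Mb, likewise delimited after the values had been seen, 114 of 534 genes were higher and 24 lower, with a median of 0.12. The median of these genes was 0.018 in MMP2sh1 at confluence, 0.019 at over-confluence and 0.11 in MMP2sh2 against the same subconfluent control libraries.

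On chromosome 7 the control libraries of this stage stood apart from those of the later days. Relative to the mean of all 27 libraries, the median deviation of the 116 genes was 0.13 to 0.17 (log2) in the 3 control libraries at day -2, but -0.12 to -0.083 in the control libraries at day 0 and -0.016 to 0.0095 at day +2. The MMP2sh1 libraries at day -2 lay at -0.048 to -0.042. Over the control of the same day, MMP2sh1 had a median log2 fold change of -0.21 for these genes while subconfluent. It was 0.14 at confluence and 0.11 at over-confluence. MMP2sh2, set against the same subconfluent control libraries, gave -0.20. The effect of MMP2sh1 differed between day -2 and day 0 for 50 of the 116 genes, against 1.35% of all tested genes. Between day -2 and day +2 it differed for 56, against 7.4%. The stretch was delimited after the day -2 values had been seen, and these values enter both counts, so the counts are no separate support. The cause of the differences was not tested.

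**Figure D4:**
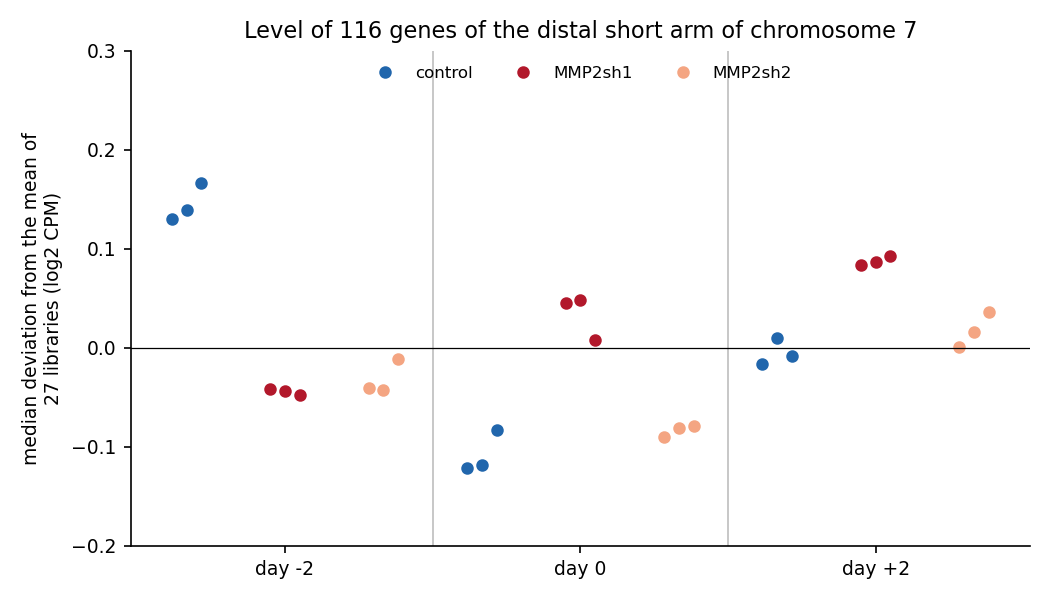
Each point is 1 library and shows the median deviation of 116 genes of the distal short arm of chromosome 7 from their mean over the 27 libraries (log2 CPM), by day and line. The 3 control libraries of day -2 sit at 0.13 to 0.17, above all libraries of MMP2sh1 and MMP2sh2 and above the control libraries of the other days.

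The same 2 lines were also compared at the later days. In libraries that took no part in the comparison at day -2, MMP2sh1 differed from control in 16.8% of tested genes at day 0 and 14.8% at day +2. Of the 2184 genes called at day -2, 1156 (52.9%) were also called at day 0, where they made up 35.1% of the calls, and 714 (32.7%) at day +2, where they made up 25%; these counts hold both directions. The effect of MMP2sh1 itself differed between day -2 and day 0 for 279 of 20617 tested genes (1.35%, interaction term in edgeR), of which 187 were more negative at day -2, and between day -2 and day +2 for 1520 of 20548 (7.4%), of which 928 were more negative at day -2. The first of these counts was unstable. It was 179 without control subconfluent replicate 1, 177 without control confluent replicate 1, 144 without MMP2sh1 confluent replicate 2 and 512 without MMP2sh1 subconfluent replicate 1. The second was 1004 without control overconfluent replicate 2 and 934 without control overconfluent replicate 3.

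The reduction of MMP2 was alike at the 3 stages, with log2 fold changes of -2.53, -2.47 and -2.34. COL3A1 (-1.79, -1.66 and -1.17), PFDN1 (-1.06, -1.0 and -0.90), F2RL2 (-1.03, -1.37 and -1.42), LCP1 (1.30, 1.12 and 1.41), TGM2 (0.89, 0.55 and 0.57) and MMP9 (1.30, 0.54 and 1.75) also kept their direction and their call at day 0 and day +2. CTSB, not called at day -2, was lower at day 0 (-0.58, adjusted p = 2.21e-14 in edgeR) and at day +2 (-0.20). Its effect differed between day -2 and day 0. No difference was called between day -2 and day +2 (0.08, adjusted p = 0.63 for the interaction in edgeR).

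Other genes changed direction. SLC7A11 was lower at day -2 (-0.52) and higher at day 0 (0.38) and day +2 (1.15). GPR132, a G protein-coupled receptor, fell from 6.08, 8.75 and 5.94 CPM to 3.47, 3.15 and 2.75 CPM at day -2 (-1.15 ± 0.18) and was higher at the later days (2.35 and 1.55). HIST1H1C was higher at day -2 (0.29) and lower at day 0 (-0.32) and day +2 (-1.09). HIST1H2AC (0.67 at day -2, -0.68 at day +2) turned between the first and the last stage. So did MIAT (-1.23 and 0.66), PDGFA (-0.45 and 0.59) and MTHFD2 (-0.35 and 0.34). NOV, a matricellular protein of the CCN family, was 0.20 lower on the log2 scale at day -2 (adjusted p = 0.039 in edgeR), a call lost without any 1 library except MMP2sh1 replicate 3, and fell by 1.08 at day 0 and 1.97 at day +2. KRT8 was higher at day -2 and was not called at day 0 (0.07) or day +2 (0.10). Among the 2184 genes, the effect at day -2 differed from day 0 for 151 and from day +2 for 620, by the interaction term. Of these differing genes, 40 were called in the other direction at day 0 and 131 at day +2. Of these, 14 and 15 lay among the 116 genes of the distal short arm of chromosome 7. That stretch held 53 genes called lower and 1 called higher at day -2.

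The other hairpin lowered MMP2 less. In MMP2sh2 against the same control libraries of day -2 the log2 fold change of MMP2 was -0.70 and 11% of tested genes were called, and in MMP2sh1 against MMP2sh2 it was -1.84 (adjusted p = 5.39e-15 in edgeR). MMP2sh1 and MMP2sh2 differed in 2009 of 18784 tested genes (10.7%), 1068 lower and 941 higher in MMP2sh1, and the number was 1208 without MMP2sh1 replicate 1, 1293 without MMP2sh1 replicate 2 and 1282 without MMP2sh2 replicate 2. The comparisons share libraries, so their values are given side by side only.

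Several of the clearest changes in MMP2sh1 were close to 0 or of the other sign in MMP2sh2. The log2 fold change was -1.06 in MMP2sh1 and -0.08 in MMP2sh2 for PFDN1, -1.03 and -0.04 for F2RL2, -1.03 and 0.19 for ACKR3, 1.30 and -0.15 for LCP1, 1.18 and -0.04 for PSG4, 1.30 and 0.08 for MMP9, 0.78 and -0.22 for ANO2 and 3.17 and -0.04 for RP11-78C3.1. Each of these genes differed between the hairpin lines in the direct comparison, as did COL3A1 (-1.79 and -0.40) and H6PD (-1.08 and 0.13). MIAT (-1.23 and -1.54), MMP3 (0.57 and 0.93), KRT8 (0.64 and 0.43), HIST1H2AC (0.67 and 0.46) and SLC7A11 (-0.52 and -0.29) moved the same way and were called with both hairpins, as was CCND1 (-0.63 and -0.23). CTSB was higher in MMP2sh2 (0.31). With 1 line per hairpin, a difference between hairpins cannot be told apart from a difference between the lines.

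**Figure D5:**
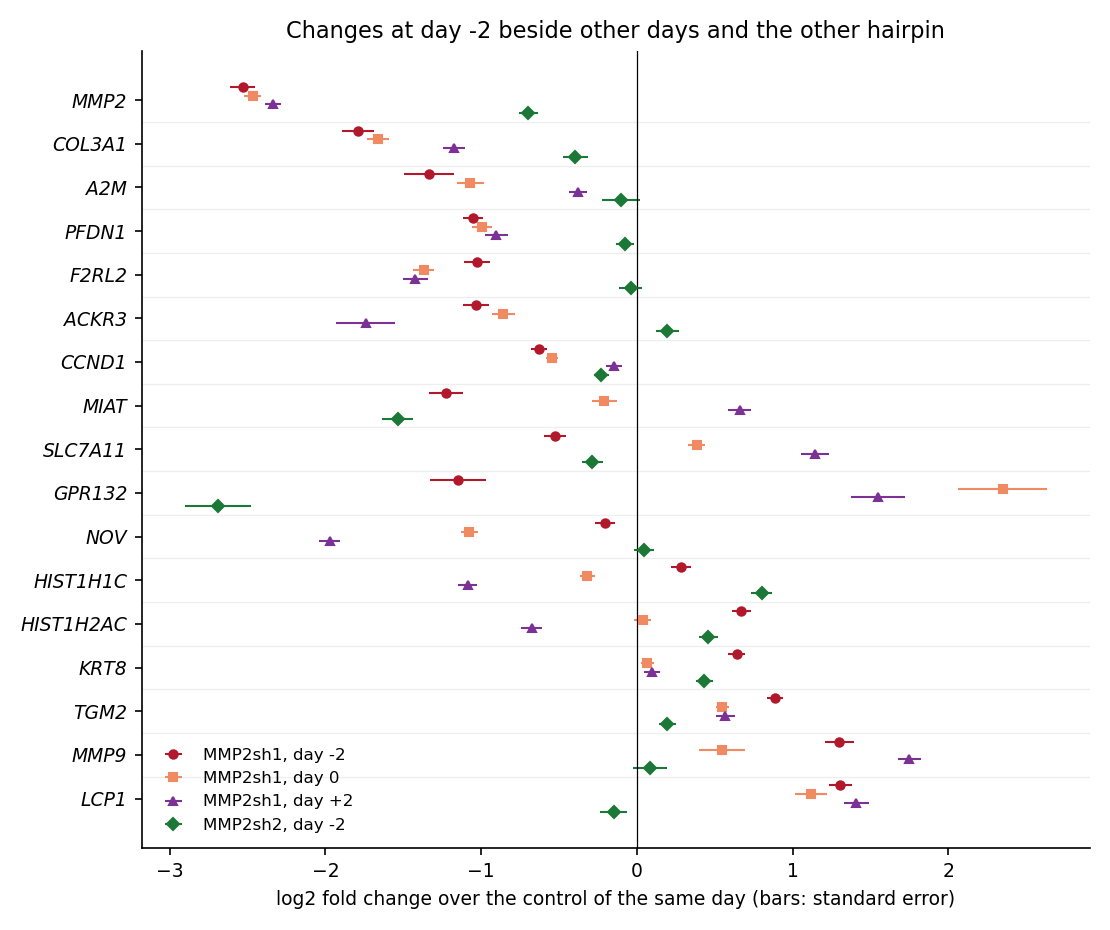
Log2 fold change over the control of the same day for 17 genes, with bars of 1 standard error; circles are MMP2sh1 at day -2, squares MMP2sh1 at day 0, triangles MMP2sh1 at day +2 and diamonds MMP2sh2 at day -2. MMP2, COL3A1, PFDN1 and F2RL2 stay left and LCP1, TGM2 and MMP9 right of 0 at all 3 days in MMP2sh1, GPR132, SLC7A11 and MIAT cross from left to right, and HIST1H1C crosses from right to left.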

How the data were processed

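The paired-end reads had been trimmed (Trim Galore 0.6.0), mapped to hg19 (STAR 2.7.3a) and counted by the authors per gene symbol over exons (HTSeq 2.0.0, union mode, no strand, minimum alignment quality 10), per the submitters' processing notes and the study's methods. The deposited values are raw counts. The 5 HTSeq summary lines (16.8 to 17.7% of each library) were left out. No pair of replicates agreed within sampling noise (chi-square per degree of freedom 7.83 to 24.9).

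Here edgeR 4.0.16 in R 4.3.3 was used: filterByExpr (at least 10 counts), TMM factors, and quasi-likelihood tests with Benjamini-Hochberg adjustment on the 6 libraries, with 12 libraries for each interaction and 6 for MMP2sh1 against MMP2sh2. A gene was called at an adjusted p under 0.05. Levels are CPM with TMM-scaled library sizes, and errors of fold changes are standard errors. p-values measure the spread between these cultures. DESeq2 1.42.0, the study's tool, was an alternative, as were other scalings, filters, a replicate block and leave-outs. Scripts were tested on simulated data.

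Genes were named by rule: MMP2 and CTSB, the 12 largest changes per direction (at least 1 CPM, no overlap), the 8 smallest p-values per direction (at least 20 CPM), the called genes with the smallest p in each of 62 lists or in the interactions, and members that a description needed; some of these genes are not reported here. CTSD, VBP1, CYSTM1, IQGAP2, SUN1, SNX8, TTYH3 and INHBA were chosen after their values were seen. The lists and the comparison were chosen with earlier results of these data known. Coordinates and GC content come from GENCODE on GRCh37.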

Additional observations from a re-analysis of the deposited data

Results flagged for a closer look

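For 30 of the genes named above the effect of MMP2sh1 at day -2 differed from that at day 0, and for 70 from that at day +2, by the interaction term of edgeR's quasi-likelihood test (adjusted p under 0.05 over all tested genes), with 24 genes in both counts. The values below are the log2 fold change of MMP2sh1 over control at day -2 minus that at the other day, so a negative value marks a gene that was lower, or less raised, in MMP2sh1 at day -2. What set these differences was not tested. No group had enough libraries for a search for single outlying libraries.

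Against day 0, the difference was -3.50 for GPR132, -1.02 for MIAT and -0.91 for SLC7A11, and for NOV, which fell further later, it was 0.87. Among matrix and protease genes it was -1.58 for ADAMTS8, -0.83 for ADAMTS15, -0.69 for COL16A1, -0.49 for TGFBI, 0.37 for LAMA1, 0.49 for MMP15 and 0.76 for MMP9. Of the named genes of the distal short arm of chromosome 7, 5 differed. The values were -0.59 for NDUFA4, -0.54 for SUN1, -0.53 for PDGFA, -0.34 for SNX8 and -0.34 for TTYH3. For HDAC9, which lies there too, no difference was called. The histone genes differed the other way, with 0.56 for HIST1H2BK, 0.60 for HIST1H1C, 0.63 for HIST1H2AC and 0.67 for HIST1H2BJ. CTSB, which was not called at day -2 and was lower at day 0, gave 0.46. The remaining differences were -0.76 for ANO2, -0.63 for SEMA3E, -0.30 for ZNF148, -0.29 for INHBA, 0.34 for TGM2, 0.43 for ZNF114, 0.47 for ZNF503, 0.56 for ENG and 0.57 for KRT8.

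Against day +2, the difference was -2.70 for GPR132, -1.88 for MIAT, -1.78 for LPCAT2, -1.67 for SLC7A11 and -0.70 for MTHFD2, and for NOV it was 1.77. Matrix, protease and adhesion genes were mostly more negative at day -2, with -0.94 for A2M, -0.70 for COL16A1, -0.64 for MMP14, -0.62 for COL3A1, -0.62 for GPC1, -0.59 for FBN1, -0.58 for FN1, -0.54 for COL5A2, -0.50 for ADAMTS12, -0.50 for SDC3, -0.33 for CTGF, -0.33 for ADAM9, -0.29 for TGFBI, -0.23 for SPARC and -0.45 for MMP9 and -0.75 for ITGA6, -0.37 for ITGB1, -0.47 for CDH11, -0.81 for PCDHB11, -0.70 for NRP1, -0.52 for SEMA7A, -0.48 for SEMA3E and -0.33 for ROBO1. Values above 0 in these groups were 0.39 for F2RL2, 0.32 for TGM2, 0.39 for MMP24, 0.43 for LAMA1, 0.43 for JUP and 0.71 for ACKR3. Genes of the cell cycle and of chromatin gave -0.59 for CDK6, -0.48 for CCND1, -0.37 for E2F7, -0.35 for MKI67, -0.43 for TP53INP1, -0.54 for TET2, -0.54 for KDM6A, -0.44 for HDAC9 and 0.40 for KAT2A, and histone genes 1.07 for HIST1H2BK, 1.34 for HIST1H2BJ, 1.35 for HIST1H2AC and 1.37 for HIST1H1C. On the distal short arm of chromosome 7, where HDAC9 lies too, the values were -1.03 for PDGFA, -0.71 for SUN1, -0.51 for TTYH3, -0.42 for SNX8 and -0.31 for NDUFA4. Metabolic and ribosomal genes gave -0.73 for H6PD, 0.28 for RPL27, 0.33 for ATP5G3, 0.46 for ALDOA, 0.46 for PGAM1, 0.88 for ALDOC and 0.51 for RPL22L1, and noncoding RNAs 0.31 for SNHG3 and 0.32 for DANCR. The remaining differences were -0.40 for ZNF148, 0.47 for ZNF503, 0.54 for KRT8, 0.78 for BEX1, 0.89 for ENG, 1.16 for ZNF165, 1.38 for ZNF114 and 1.47 for C4orf26.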

How the results depend on the processing

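Under DESeq2 instead of edgeR, other size factors, other filters on low counts, the replicate block, a fit over all 27 libraries and the GC offset (added after seeing the data), 2195 to 2619 genes were called in MMP2sh1 against control at day -2, against 2184, and in none of these settings did a gene called in both have the other sign. Leaving out 1 library gave 1321 to 2274 calls. MMP2 stayed between -2.65 and -2.43 on the log2 scale throughout. For the effect at day -2 against day 0, DESeq2 gave 544 calls and leaving out 1 library 144 to 512, against 279. For day -2 against day +2 the leave-outs gave 934 to 1682 calls, against 1520, and for MMP2sh1 against MMP2sh2 1208 to 1946, against 2009. The cause of these shifts was not tested, beyond the loss of a library.

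Between control and MMP2sh1 at day -2, the correlation of same-numbered deviations was 0.236, -0.0595 and 0.0687 over 10251 genes. Other groups were not correlated, so whether the replicate numbers pair the samples was not settled. A replicate block gave 2597 calls at day -2, against 2184. It gave 390 calls for the effect against day 0 (279 without it) and 1371 against day +2 (1520). For MMP2sh1 against MMP2sh2 it gave 2974 calls, against 2009.

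Of the genes named, IVL was not called in the fit over 27 libraries (1.74, adjusted p = 0.0912 in edgeR) nor FN1 by DESeq2 (-0.39, adjusted p = 0.325). DESeq2 gave no adjusted p for 8 genes of low level (ABCB10P1, GDAP1L1, IVL, LIPH, LPCAT2, MILR1, PTPRC and RP11-671C19.2). The named genes that changed sign, CTSL, COL1A1 and PTPRC, were not called. CTSL was at -0.00179 with no filter, -0.000803 with the replicate block and -5.73e-05 over 27 libraries. Leaving out 1 library gave -0.038 to 0.030 for CTSL, -0.10 to 0.075 for COL1A1 and -0.051 to 0.94 for PTPRC.

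With the GC offset 4 fibrillar collagens were called, 12 sterol, 12 DNA replication and 22 histone- or DNA-modifying genes, against 2, 6, 7 and 14, and the fibrillar collagens were also 4 with no filter or the replicate block.

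With 3 libraries per group, 0.512% of genes under 1 CPM were called, and with 1 line per hairpin the line and the hairpin cannot be told apart.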
